A study of Mus musculus with 2 samples.

Results

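Connexins are the proteins of gap junctions, the channels that join the cytoplasm of neighbouring cells, and pannexins are a second family of large-pore channels. The genes described here are 6 connexins (Gja1, Gjb6, Gjb1, Gjc3, Gjc1 and Gjd2) and 2 pannexins (Panx1 and Panx2), found by symbol among the 32285 genes of 2 single-cell libraries of the mouse locus coeruleus (LC), and all 8 had counts in both libraries. The LC is a small pontine nucleus of noradrenergic neurons. The mice were of strain C57BL/6N and wild type, males and females, untreated and 3 to 4 weeks old. The 2 libraries are labelled batch 1 and batch 2 (library 1 and library 2 here). Neither the number of mice nor their pooling is given, so n = 2 libraries, and their spread may be technical. The protocols describe both papain-dissociated, methanol-fixed cells and sorted nuclei and do not assign them to a library, so a cell below may be either.

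A ring of connexins forms a hemichannel, and hemichannels of adjoining cells dock into a gap junction. In the brain, astrocytes couple to each other and to oligodendrocytes, and this panglial network carries ions and metabolites. Electrical synapses between neurons are built mainly of the Gjd2 product connexin 36, and LC neurons and mesencephalic trigeminal neurons are both known for electrical coupling. Pannexins form single-membrane channels that release ATP, which acts on purinergic receptors.

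After filtering, 294 cells of library 1 and 2680 of library 2 remained, with no barcode shared between the libraries. The libraries stand apart in depth: before filtering, the median count of unique molecular identifiers (UMIs) was 11010 per barcode in library 1 and 1517 in library 2, and totals were 5600693 and 6895380 UMIs. Cells were grouped by 139 marker genes that include no connexin or pannexin, so none of the 8 genes defined a class. The noradrenergic-like class (12 and 74 cells) held all 7 noradrenergic markers, together at 9022 and 6769 CPM (counts scaled to a class total of 1000000 UMIs). Lhx9 was at 0 in the excitatory-like class, Runx3 was at 0 in the mesencephalic trigeminal-like class of library 1, and Opalin was at 0 in the oligodendrocyte precursor-like class. The vascular or blood-like class was mixed, with erythroid markers at 79061 CPM in library 1 and at 0 in library 2. Erythroid markers outnumbered the other vascular markers in 1 cell of library 1, which held 12765 of the 69617 UMIs of the class there. Microglia-like cells (1 and 35) were too few in library 1 to be compared.

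UMIs of the 8 genes were few, from 82 for Gjb6 to 594 for Gjc3 over both libraries. Gjb1, Gjc3 and Gjb6 were the most concentrated. Oligodendrocyte-like cells held 94.5% and 97.3% of the Gjb1 UMIs of library 1 and library 2, and 87.9% and 88.1% of Gjc3. Astrocyte-like cells held 87.5% and 83.3% of Gjb6. Gja1 was shared: astrocyte-like cells held 47.6% and 63.0%, and ependymal-like cells held 41 of 82 UMIs in library 1, more than astrocyte-like cells, and 15.6% in library 2. Vascular or blood-like cells held 36.4% and 63.4% of Gjc1. For the other 3 genes the class with the most UMIs was neuronal in each library, with 39.3% and 27.7% of Gjd2, 30.5% and 32.4% of Panx1 and 36.0% and 32.4% of Panx2. These shares follow the number of cells of each class in a library as well as the level.

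Start-site sequences of the 4 glial genes are printed because these genes differed most between glial classes below. Each run is the 250 bases before a RefSeq transcription start on GRCm38.p6, 5′ to 3′ on the strand of the gene. Capitals mark the cores ACAAAG and ACAATG (either strand) of binding sites of SOX-type factors, a family that includes the oligodendrocyte factor Sox10. For Gjb1 the window is chrX:101383482-101383731 (plus strand), for Gjc3 chr5:137963099-137963348 (minus), for Gja1 chr10:56377050-56377299 (plus) and for Gjb6 chr14:57133612-57133861 (minus).
Gjb1, start 4 of 4: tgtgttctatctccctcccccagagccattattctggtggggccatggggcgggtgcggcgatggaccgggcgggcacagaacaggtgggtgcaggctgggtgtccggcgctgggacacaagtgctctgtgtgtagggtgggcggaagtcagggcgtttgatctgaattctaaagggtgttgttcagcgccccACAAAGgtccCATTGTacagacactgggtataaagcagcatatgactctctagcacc
Gjc3: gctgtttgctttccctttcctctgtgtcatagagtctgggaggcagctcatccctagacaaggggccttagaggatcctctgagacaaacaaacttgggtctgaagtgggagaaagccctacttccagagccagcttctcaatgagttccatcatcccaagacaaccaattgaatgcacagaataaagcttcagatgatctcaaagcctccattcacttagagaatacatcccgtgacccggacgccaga
Gja1: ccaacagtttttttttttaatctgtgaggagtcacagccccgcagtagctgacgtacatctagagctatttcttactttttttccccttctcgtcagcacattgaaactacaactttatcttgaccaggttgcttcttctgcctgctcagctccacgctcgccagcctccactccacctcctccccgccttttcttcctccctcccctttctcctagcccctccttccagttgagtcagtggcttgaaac
Gjb6: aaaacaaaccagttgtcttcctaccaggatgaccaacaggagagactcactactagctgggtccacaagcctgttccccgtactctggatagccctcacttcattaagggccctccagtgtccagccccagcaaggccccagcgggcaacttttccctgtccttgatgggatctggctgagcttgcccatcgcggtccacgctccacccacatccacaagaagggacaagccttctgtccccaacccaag
The Gjb1 window holds 2 cores on opposite strands, beginning 57 and 47 bases before the start with 4 bases between them. At least 1 core lay in 25.0% of 32536 promoter windows of this length, and at least 2 lay in 4.14%. Among the 9 windows matched to 6 of the 8 genes, only this one and that of Gjb1 start 1 (1 core) held any. Start 4 was chosen for printing after the search because it held the most cores, and the other 3 Gjb1 starts held 1, 0 and 0, so those shares of single windows do not measure how unusual it is. A match is a run of letters and not a measured site, and these counts do not tell which Gjb1 start was used.

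The astrocyte pair comes first. Gja1 (ENSMUSG00000050953, chr10:56377330-56402513, plus strand) encodes connexin 43, the main gap junction protein of astrocytes. Gjb6 (ENSMUSG00000040055, chr14:57123303-57133611, minus strand) encodes connexin 30, the second astrocyte connexin. In the 16 and 299 astrocyte-like cells Gja1 gave 39 UMIs in library 1, or 419 CPM (exact 95% Poisson interval 298 to 573), and 85 UMIs in library 2, or 275 CPM (220 to 340). Gjb6 gave 14 UMIs, or 150 CPM (82.2 to 252), and 55 UMIs, or 178 CPM (134 to 231). All such intervals cover counting error only. Oligodendrocyte-like cells had no Gja1 UMI in either library, where 3 counts would be 7.35 and 2.49 CPM, and 1 Gjb6 UMI in all. Neurons of all kinds had 1 and 7 Gja1 UMIs (0.218 and 1.60 CPM) and 2 and 4 Gjb6 UMIs. Both genes were thus high in astrocyte-like cells of both libraries and near 0 in oligodendrocyte-like cells and neurons.

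Classes were compared on their summed UMIs in the 2 libraries with edgeR's quasi-likelihood test, library as a block and Benjamini-Hochberg adjustment, and a gene was called at an adjusted p below 0.05. Against all neurons, 24.9% of 11865 tested genes were called in astrocyte-like cells, and 5 of the 7 connexins and pannexins tested were called. Gja1 was higher by 8.55 ± 0.48 (log2 fold ± SE, adjusted p = 8.895e-69), with 8.46 and 6.76 in the single libraries, and Gjb6 by 7.91 ± 0.65 (adjusted p = 4.716e-32). Folds of single libraries carry a prior count that pulls scarce genes toward 0. Gjc3 was higher by 3.36 ± 0.89 (adjusted p = 0.00118), with 4.33 and 2.25 in the libraries, from few UMIs described with the oligodendrocyte genes. Among neurons, the granule-like class had 3 and 4 Gjc3 UMIs, a mean of 32.3 ± 28.0 CPM (SD, n = 2). The mean of astrocyte-like cells was 36.0 ± 9.80 CPM, so that neuron class was not below them beyond its spread. Panx1, with no UMI in astrocyte-like cells, was at least 2.58-fold lower (adjusted p = 0.0204). Panx2 had 3 UMIs there, a ratio of 0.190 to neurons with a counting interval of 0.0390 to 0.560 (adjusted p = 0.0262), and DESeq2 did not call it (adjusted p = 0.169). For Gjd2 the ratio of 0.220 (0.00550 to 1.25) rested on 1 UMI and was not called (adjusted p = 0.381), and for Gjc1 it was 1.85 (0.365 to 5.86, adjusted p = 0.742). Gja1, Gjb6 and Gjc3 passed the low-count filter through astrocyte-like cells, and Panx1 and Panx2 through neurons. Their calls and the count of calls thus add little to the levels.

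Against oligodendrocyte-like cells, Gja1 was at least 166-fold higher in astrocyte-like cells (edgeR adjusted p = 1.857e-41, DESeq2 adjusted p = 0.0532). Gjb6 was higher at a ratio of 277 with a counting interval of 48.0 to 11086 (adjusted p = 6.579e-23). All 4 genes tested here were called, beside 40.6% of 5596 genes. A gene that passed the low-count filter through 1 class alone, as Gja1 did here, had to differ, so the calls of scarce glial genes add little to the levels themselves.

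**Figure D1:**
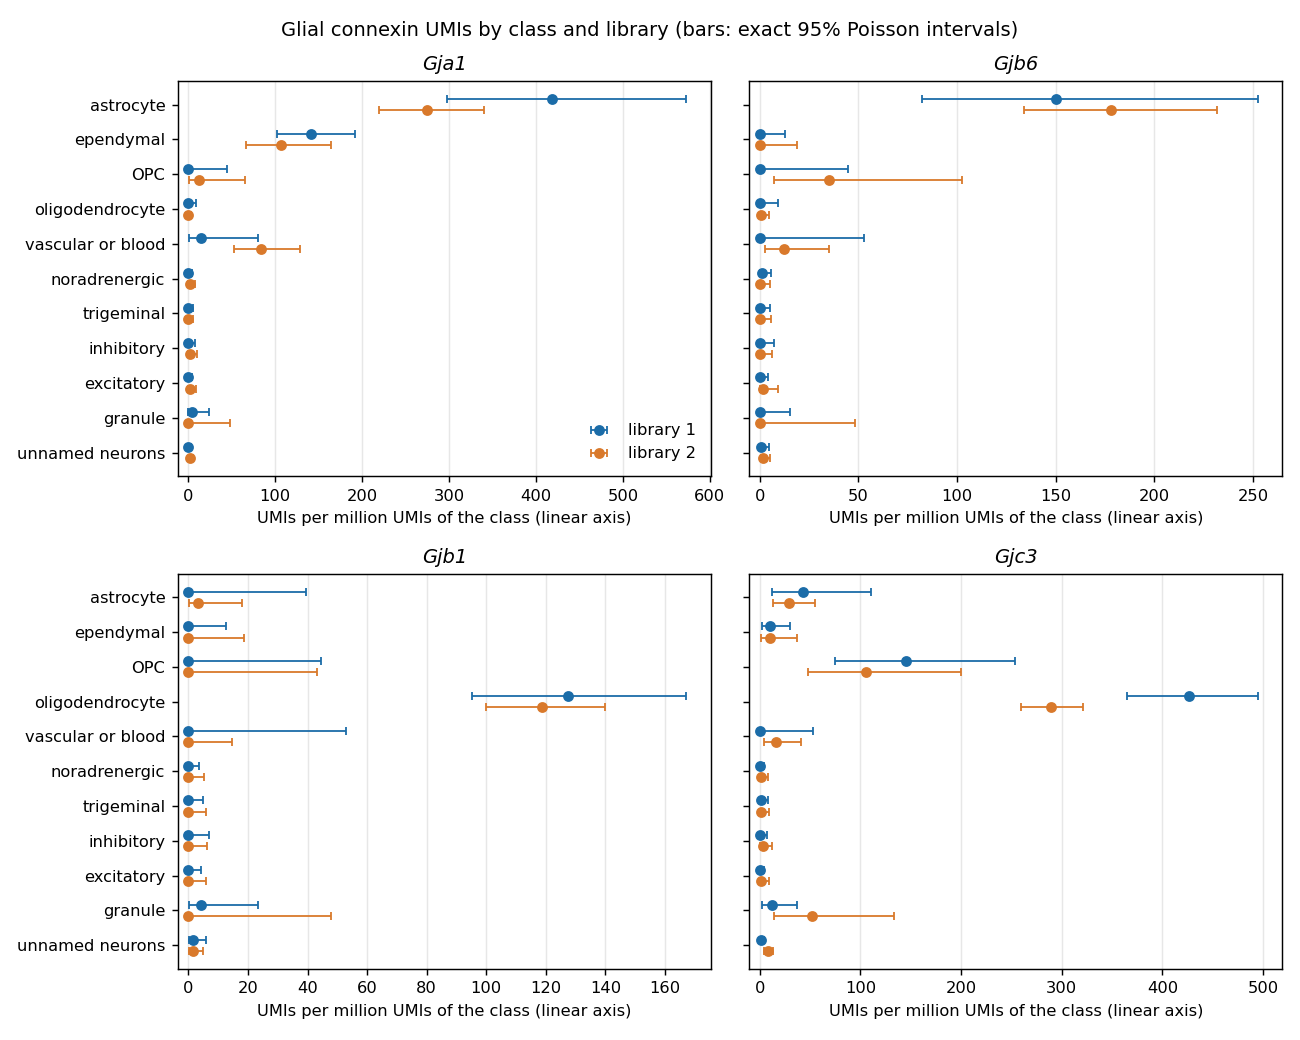
Levels of Gja1, Gjb6, Gjb1 and Gjc3 (CPM, 1 panel per gene) in 11 cell classes, with 1 point per library (library 1 blue, library 2 orange) and exact 95% Poisson intervals. Gja1 and Gjb6 peak in astrocyte-like cells (419 and 275, 150 and 178), Gjb1 and Gjc3 in oligodendrocyte-like cells (127 and 119, 426 and 290).

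Depth moves the share of cells in which a scarce gene is seen. Gja1 was seen in 13 of 16 astrocyte-like cells of library 1 (81.2%) and in 71 of 299 of library 2 (23.7%), with median depths of 5534 and 956 UMIs. With every cell thinned to 1000 UMIs, leaving out 164 shallower astrocyte-like cells of library 2, the shares were 43.8% (exact binomial interval 19.8 to 70.1) and 25.2% (18.1 to 33.4). Those intervals overlap. In oligodendrocyte-like cells, a class that should lack Gja1, thinned cells with a UMI were 0 of 38 and 0 of 581 (up to 0.516% allowed), so Gja1 in astrocyte-like cells lay above that background. Thinned Gjb6 was seen in 31.2% and 16.3% of astrocyte-like cells and in 1 of 581 oligodendrocyte-like cells of library 2 (0.172%). The 2 astrocyte genes were found together in 8 and 12 cells, against 7.31 and 11.6 if they were independent.

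Astrocyte-like cells fell into 3 clusters. In the largest (13 and 186 cells) Gja1 was at 438 and 282 CPM and Gjb6 at 159 and 177 CPM. In library 2 the other two clusters (30 and 83 cells) had Gja1 at 264 and 260 CPM and Gjb6 at 206 and 169 CPM, a narrow range.

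Ependymal-like cells, which line the ventricle next to the LC, carried Gja1 without Gjb6. Gja1 reached 41 UMIs in library 1, or 142 CPM (102 to 192), and 21 UMIs in library 2, or 107 CPM (66.3 to 164). Gjb6 had no UMI in the 19 and 106 cells. Their Gja1 lay below that of astrocyte-like cells in both libraries, by 1.28 and 1.31 on the log2 scale (together −1.49 ± 0.35, edgeR adjusted p = 0.0001176). DESeq2 gave −1.37 and no call (adjusted p = 0.181). Gjb6 was at least 27.8-fold lower (adjusted p = 7.497e-14), but it passed the low-count filter through astrocyte-like cells alone and had to differ. Both genes tested were called, beside 40.6% of 4613 genes. Astrocyte markers were at 643 and 480 CPM in ependymal-like cells and at 6263 and 5812 CPM in astrocyte-like cells, and their part in the Gja1 level was not tested.

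The oligodendrocyte genes follow. Gjb1 (ENSMUSG00000047797, chrX:101376378-101385629, plus strand) encodes connexin 32, known from myelinating cells. Gjc3 (ENSMUSG00000056966, chr5:137953461-137963098, minus strand) encodes connexin 29, also of myelinating glia. In the 38 and 727 oligodendrocyte-like cells, Gjb1 had 52 UMIs, or 127 CPM (95.2 to 167), and 143 UMIs, or 119 CPM (100 to 140). Gjc3 had 174 UMIs, or 426 CPM (365 to 495), and 349 UMIs, or 290 CPM (260 to 322). Gjb1 was alike in the 2 libraries, while for Gjc3 the level of library 1 lay above that of library 2 beyond counting error.

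Against all neurons, where 51.2% of 12223 genes were called, each of the 5 connexins and pannexins tested was called. Gjb1 was higher by 7.83 ± 0.39 (edgeR adjusted p = 1.646e-87) and Gjc3 by 7.18 ± 0.30 (2.42e-122, with 8.11 and 5.86 in the libraries). The other genes tested were lower. Panx1 fell by 2.67 on the log2 scale (SE 0.65, adjusted p = 0.0001453) and Panx2 by 3.31 (SE 0.53, adjusted p = 2.247e-09). Gjd2 was at 1 UMI, a ratio of 0.0549 (0.0014 to 0.313, adjusted p = 0.00151). DESeq2 called neither Panx1 (adjusted p = 0.0572) nor Gjd2 (adjusted p = 0.0936). Gjb1 and Gjc3 passed the low-count filter through oligodendrocyte-like cells, and Gjd2, Panx1 and Panx2 through neurons. Genes kept through the class where they are high are prone to be called, so these calls add little to the levels. Against astrocyte-like cells, Gjc3 was higher by 3.45 ± 0.45 and Gjb1, with 1 UMI in astrocyte-like cells, was at a ratio of 0.0206 there (0.0005 to 0.116).

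In oligodendrocyte precursor-like cells Gjc3 was counted and Gjb1 was not. Oligodendrocyte precursor-like cells (12 and 85) had 12 Gjc3 UMIs, or 145 CPM (75.0 to 253), and 9 UMIs, or 105 CPM (48.1 to 200). In library 1 they came from 8 of 12 cells and in library 2 from 8 of 85. Gjb1 had no UMI in these cells, where 3 counts would be 36.3 and 35.1 CPM. From precursor-like to oligodendrocyte-like cells, 40.9% of 4238 genes were called, as were both of the genes tested. Gjc3 was lower in precursor-like cells by 1.76 ± 0.41 (adjusted p = 8.685e-05), in both libraries (−2.15 and −1.95), and Gjb1 was at least 6.78-fold lower (adjusted p = 2.146e-07). Gjb1 passed the low-count filter through oligodendrocyte-like cells alone and had to differ. For Gjc3 DESeq2 gave −1.70 and no call (adjusted p = 0.0819). Oligodendrocyte markers summed to 471 and 1322 CPM in the precursor-like class against 46309 and 27703 CPM in the oligodendrocyte-like class. Per 1000 UMIs of those markers, Gjc3 gave 308 and 79.6 UMIs in precursor-like cells and 9.21 and 10.5 in oligodendrocyte-like cells. Astrocyte-like cells gave 59.7 and 26.2 and granule-like neurons 8.85 and 23.7, and no other class exceeded 18.3 (vascular or blood-like, library 2). What part oligodendrocyte RNA had in the Gjc3 level of precursor-like cells was not tested.

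Thinned to 1000 UMIs, oligodendrocyte-like cells showed Gjc3 in 36.8% and 23.1% (19.7 to 26.7) of cells, against 94.7% and 35.8% unthinned. The thinned shares in precursor-like cells were 8.33% and 15.2% (5.11 to 31.9), with 1 and 5 cells. Astrocyte-like cells had Gjc3 in 0 of 16 and 3 of 135 thinned cells (2.22%), and unnamed neurons of library 2 in 0.945%. For Gjb1 the thinned shares in oligodendrocyte-like cells were 7.89% and 11.4% (8.90 to 14.2), with 0 of 16 and 0 of 135 astrocyte-like cells (up to 18.8% and 2.22% allowed). Gjc3 thus lay above the share in astrocyte-like cells of library 2, and Gjb1 above that limit in library 2 but not in library 1. The 4 Gjc3 UMIs of astrocyte-like cells in library 1 all came from 1 cell, and the 9 in library 2 came from 9 cells. Oligodendrocyte markers were at 720 and 1109 CPM in astrocyte-like cells, and their part in the Gjc3 call against neurons was not tested.

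**Figure D2:**
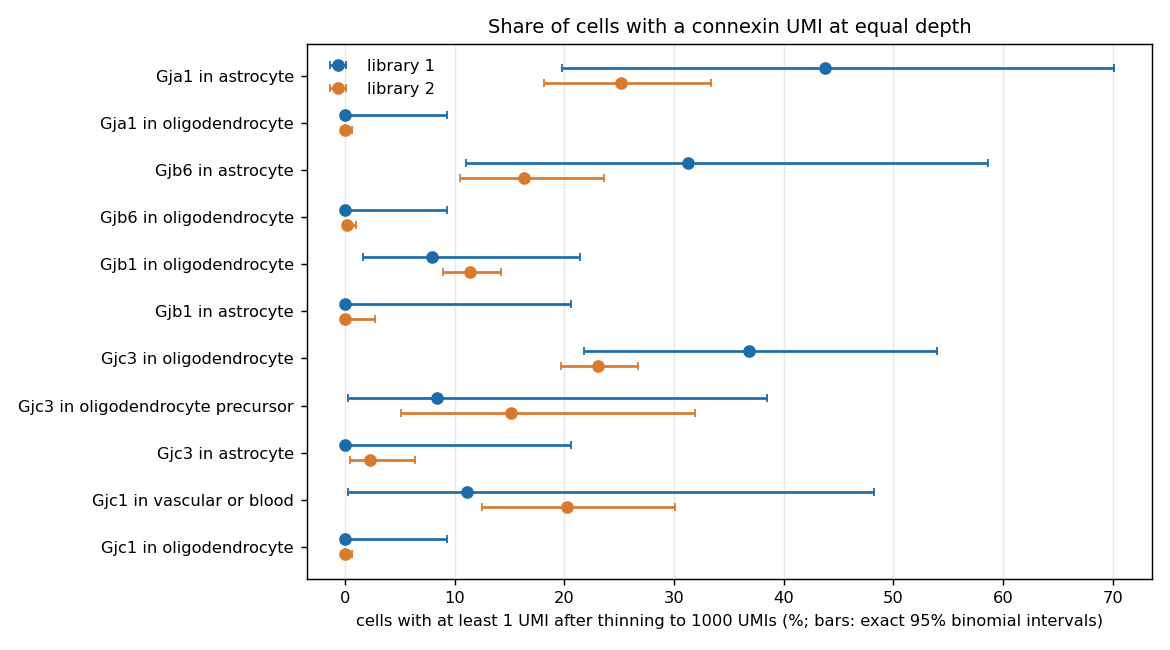
Share of cells with at least 1 UMI (percent) after every cell was thinned to 1000 UMIs, by gene and class, with 1 point per library and exact 95% binomial intervals. Gja1 is seen in 43.8% and 25.2% of astrocyte-like cells and in none of the oligodendrocyte-like cells, and Gjc3 in 36.8% and 23.1% of oligodendrocyte-like cells.

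Oligodendrocyte-like cells were not alike in Gjb1. The clusters compared here were chosen after their values were seen, so the difference is a description without a test. A cluster high in Opalin, a gene of mature myelinating cells (called the Opalin cluster, 20 and 166 cells, with Opalin at 538 and 783 CPM), had Gjb1 at 62.4 CPM (33.2 to 107) and 53.1 CPM (30.3 to 86.2). A cluster high in Enpp6, a gene of newly forming oligodendrocytes (called the Enpp6 cluster, 11 and 154 cells, with Enpp6 at 503 and 738 CPM), had Gjb1 at 224 CPM (154 to 315) and 194 CPM (148 to 249). In each library the Enpp6 cluster was above the Opalin cluster and the intervals did not overlap, at ratios of 3.60 (1.84 to 7.44) and 3.65 (2.08 to 6.79). Gjc3 did not follow, at ratios of 1.07 (0.759 to 1.49) and 0.885 (0.651 to 1.20).

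The largest oligodendrocyte-like cluster (5 and 333 cells) lay between them for Gjb1, at 81.6 and 104 CPM. Cells were also grouped directly by UMIs of the 2 genes, a split chosen after the clusters were seen. Opalin and Enpp6 are among the markers that formed the clusters, so these groups are not a separate check. Cells with an Opalin UMI and no Enpp6 UMI (20 and 181) had Gjb1 at 62.7 CPM (33.4 to 107) and 48.6 CPM (27.8 to 79.0), and cells with Enpp6 and no Opalin (9 and 124) had 244 CPM (167 to 345) and 217 CPM (164 to 282). Cells with neither (4 and 406, more than any other group in library 2) had 145 CPM (39.6 to 372) and 120 CPM (93.6 to 152). The few cells with both (5 and 16) had 3 and 1 Gjb1 UMIs, or 70.9 CPM (14.6 to 207) and 28.6 CPM (0.725 to 160). Bmp4, which marks the earliest committed cells, was at 0 in both clusters. Bcas1, another gene of premyelinating cells, was at 714 and 1055 CPM in the Enpp6 cluster and at 696 and 760 CPM in the Opalin cluster.

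**Figure D3:**
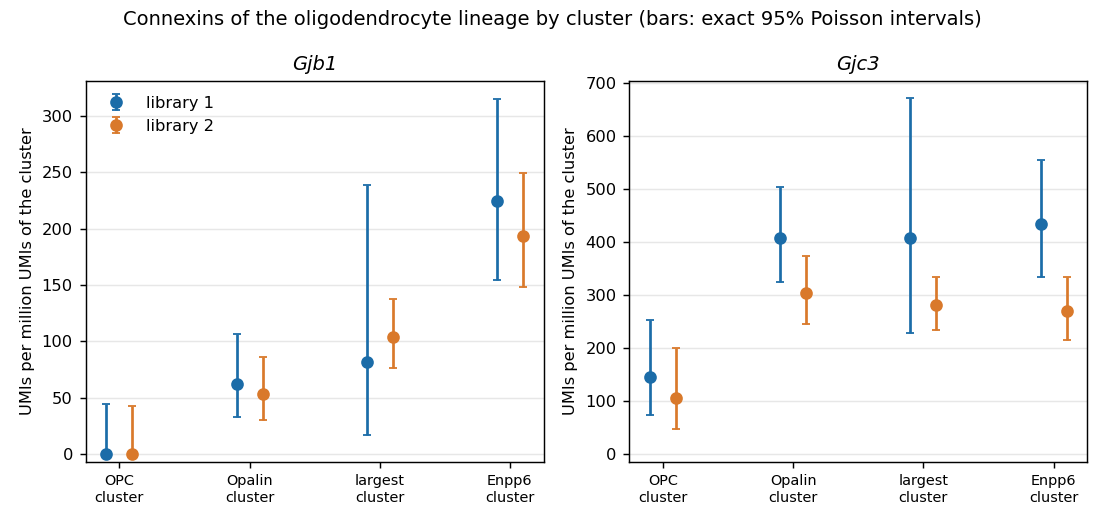
Levels of Gjb1 and Gjc3 (CPM) in oligodendrocyte precursor-like cells and 3 oligodendrocyte-like clusters, with 1 point per library and exact 95% Poisson intervals. Gjb1 stands at 224 and 194 in the Enpp6 cluster and at 62.4 and 53.1 in the Opalin cluster, while Gjc3 overlaps between them.

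Gjc1 (ENSMUSG00000034520, chr11:102799579-102819700, minus strand) encodes connexin 45, which occurs in blood vessels and in some neurons. Its highest level was in vascular or blood-like cells, with 12 UMIs in library 1, or 172 CPM (89.1 to 301), and 52 UMIs in library 2, or 208 CPM (156 to 273). A split made after the values were seen took the cells with more endothelial than other vascular or blood markers (6 and 170 cells). These had 184 CPM (79.2 to 362, from 8 UMIs) and 216 CPM (159 to 287). The 1 cell led by erythroid markers held 3 of the 12 Gjc1 UMIs of library 1. What part erythroid content had in the Gjc1 level was not tested. Gja1 in the vascular or blood-like class was uneven, with 1 UMI in library 1 (14.4 CPM, 0.364 to 80.0) and 21 in library 2 (84.1 CPM, 52.1 to 129). Thinned to 1000 UMIs, Gjc1 was seen in 1 of 9 and 18 of 89 vascular cells (20.2%, 12.4 to 30.1). Elsewhere Gjc1 was scarce, at 20.7 and 25.5 CPM in ependymal-like cells and at 5.46 and 11.1 CPM in trigeminal-like neurons. Noradrenergic-like neurons had 2 UMIs in library 1 and none in library 2. Oligodendrocyte-like cells had 1 UMI, in library 2. No comparison of the vascular or blood-like class was tested.

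Gjd2 (ENSMUSG00000068615, chr2:114009601-114013619, minus strand), the gene of the neuronal connexin 36, was low in every class. Noradrenergic-like neurons had 22 UMIs in library 1, or 22.3 CPM (13.96 to 33.7), and 9 in library 2, or 12.8 CPM (5.83 to 24.2). They were spread over 9 of 12 and 8 of 74 cells, and 1 cell of library 1 held 8 of the UMIs. Inhibitory-like neurons had 21.1 CPM (10.5 to 37.7) and 12.04 CPM (4.84 to 24.8). Trigeminal-like neurons had 3 UMIs, or 4.09 CPM (0.845 to 11.97), and 13 UMIs, or 20.6 CPM (10.9 to 35.2). By mean over the libraries the order was noradrenergic-like (17.5 ± 6.72 CPM, SD, n = 2), inhibitory-like (16.6 ± 6.40), trigeminal-like (12.3 ± 11.6), granule-like (8.60 ± 6.25), excitatory-like (7.53 ± 6.11) and unnamed neurons (7.31 ± 0.187), and no neighbours in it differed beyond their spread. Ependymal-like, precursor-like and vascular or blood-like cells had no Gjd2 UMI. The gene A530058N18Rik overlaps Gjd2 on the other strand and had 17 and 10 UMIs in noradrenergic-like and 7 and 11 in inhibitory-like neurons. Whether counting used strand is not given in the sources used here, so reads of the 2 genes in their overlap cannot be told apart.

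Panx1 (ENSMUSG00000031934, chr9:15002128-15045478, minus strand) encodes the widespread ATP-releasing pannexin 1. In noradrenergic-like neurons it had 25 UMIs in each library, or 25.3 CPM (16.4 to 37.4) and 35.4 CPM (22.9 to 52.3), in 11 of 12 and 21 of 74 cells. Trigeminal-like neurons had 23.2 and 17.4 CPM, excitatory-like 11.9 and 17.7, and inhibitory-like 7.67 and 24.1. Noradrenergic-like neurons were the highest neuronal class in both libraries, with intervals that overlap those of their neighbours. Panx1 was also counted in vascular or blood-like cells (2 and 3 UMIs) and precursor-like cells (3 and 1 UMIs), and had none in astrocyte-like cells. By mean over the libraries vascular or blood-like cells were at 20.4 ± 11.8 CPM (SD, n = 2) and precursor-like cells at 24.0 ± 17.4. All neurons were at 19.3 ± 3.81 CPM, so Panx1 was not confined to neurons, though the levels of these small classes rest on few UMIs.

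Panx2 (ENSMUSG00000058441, chr15:89059734-89073567, plus strand) encodes pannexin 2, a form mainly of the nervous system. Trigeminal-like neurons had 62 UMIs in library 1, or 84.6 CPM (64.9 to 108), and 56 in library 2, or 88.6 CPM (66.9 to 115). They came from 9 of 12 and 27 of 49 cells, with at most 16 UMIs in 1 cell. Granule-like neurons had 54.4 and 39.1 CPM, inhibitory-like 47.9 and 18.9, excitatory-like 27.3 and 40.1, and noradrenergic-like 25.3 (16.4 to 37.4) and 32.6 (20.7 to 48.9). The trigeminal-like class was the highest in both libraries, and its intervals did not overlap those of the noradrenergic-like class, while those of the granule-like class (29.0 to 93.1 and 8.06 to 114) did. Glia were nearly empty of Panx2, with none in precursor-like and ependymal-like cells, 3 UMIs in astrocyte-like and 5 in oligodendrocyte-like cells, all in library 2. The gene 1810021B22Rik overlaps Panx2 and had 7 and 10 UMIs over all cells.

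**Figure D4:**
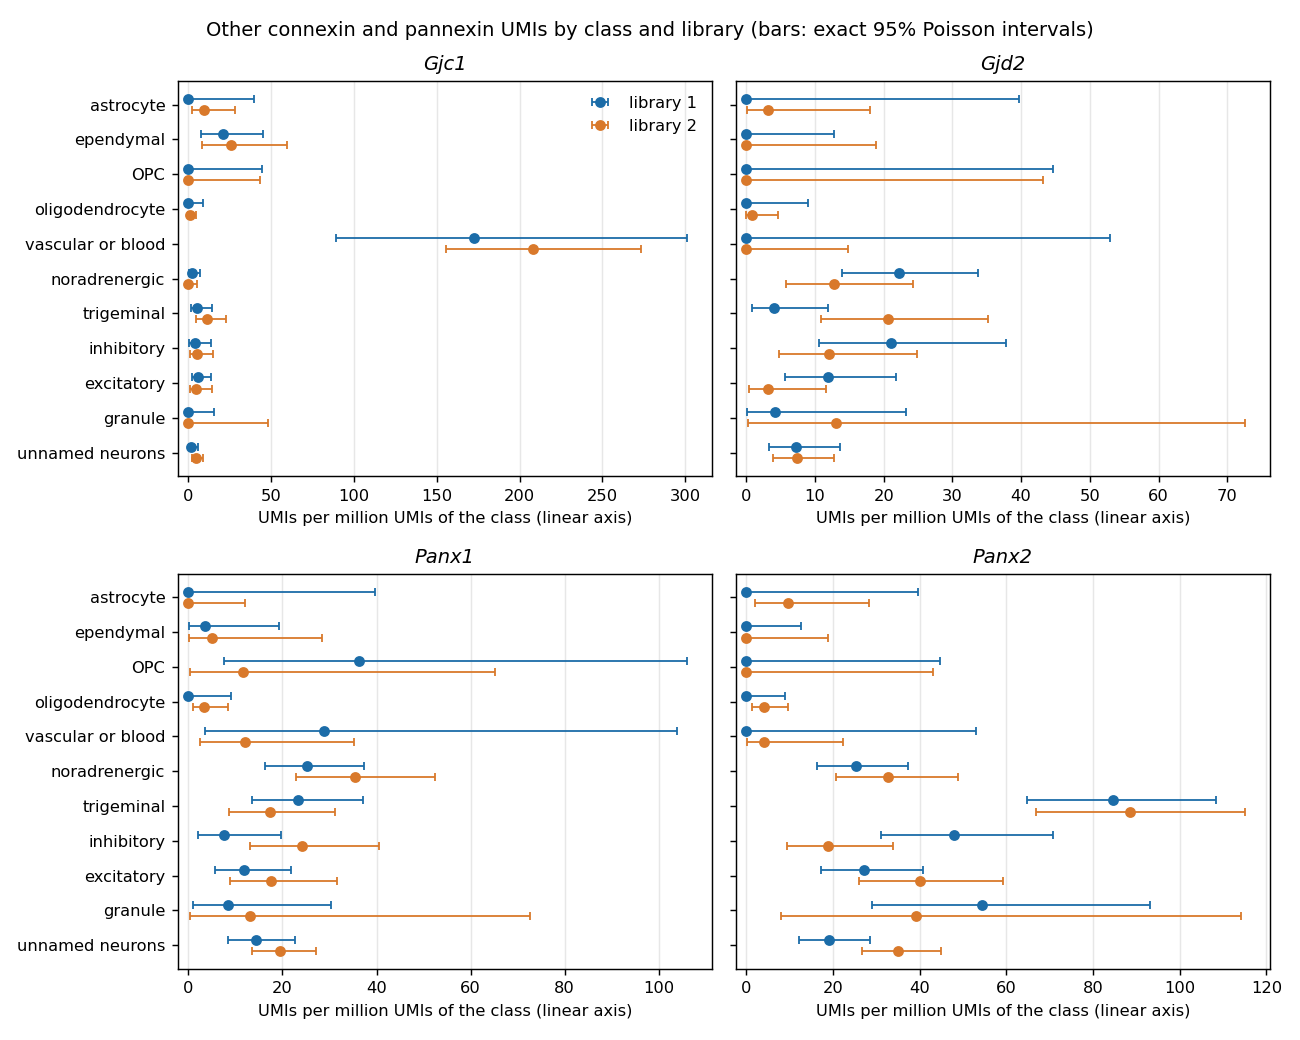
Levels of Gjc1, Gjd2, Panx1 and Panx2 (CPM, 1 panel per gene) in 11 cell classes, with 1 point per library and exact 95% Poisson intervals. Panx2 is highest in trigeminal-like neurons (84.6 and 88.6), Gjc1 in vascular or blood-like cells (172 and 208), and the Gjd2 intervals of noradrenergic-like and inhibitory-like neurons overlap.

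Trigeminal-like neurons, the proprioceptive cells beside the LC, were then compared with all other neurons. Of 11660 genes 34.8% were called, and of the 4 connexins and pannexins tested Panx2 was the 1 called. It was higher by 1.51 ± 0.26 (edgeR adjusted p = 6.067e-08), by 1.42 and 1.34 in the single libraries, where other neurons were at 28.6 and 33.0 CPM. Gjd2 gave 0.09 ± 0.49 (adjusted p = 0.917) with opposite signs in the libraries (−1.66 and 1.12). Gjc1 gave 1.29 ± 0.70 (adjusted p = 0.145) and Panx1 0.14 ± 0.37 (adjusted p = 0.819), the latter with opposite signs in the libraries (0.45 and −0.43).

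LC neurons were compared with all other neurons in the same way. By edgeR 0 of the 3 genes tested were called, where 31% of 11622 genes were called and 4796 had an unadjusted p below 0.05, Panx1 and Panx2 among them. DESeq2 called none of the 3 either. Panx1 gave 0.80 ± 0.29 (unadjusted p = 0.0159, adjusted p = 0.0509), higher in both libraries (0.65 and 0.71), and its call changed with the definition of cells and classes (closing section). Gjd2 gave 0.83 ± 0.38 (adjusted p = 0.123), with 1.02 and 0.22 in the libraries. Panx2 gave −0.59 ± 0.25 (unadjusted p = 0.0341, adjusted p = 0.0907). The other 5 genes had too few UMIs to be tested here.

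Set directly against trigeminal-like neurons, where 35.2% of 8525 genes were called, LC neurons were lower in Panx2 by 1.65 ± 0.32 (adjusted p = 2.318e-06), and in both libraries (−1.70 and −1.39). DESeq2 gave −1.66 and no call (adjusted p = 0.0718). Panx2 was the 1 edgeR call among 3 genes tested. Gjd2 gave 0.59 ± 0.58 (adjusted p = 0.477), again with opposite signs (1.86 and −0.61), and Panx1 gave 0.48 ± 0.42 (adjusted p = 0.408). The 3 comparisons share noradrenergic-like or trigeminal-like sums and are not independent. Between inhibitory-like and excitatory-like neurons 4.24% of 7575 genes were called. By edgeR 0 of 2 tested were called there, Panx1 (0.08 ± 0.54, unadjusted p = 0.890) and Panx2 (0.03 ± 0.40, unadjusted p = 0.949). Both had opposite signs in the libraries, −0.46 and 0.38 for Panx1 and 0.77 and −0.98 for Panx2. DESeq2 called neither, and 993 genes had an unadjusted p below 0.05 by edgeR.

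**Figure D5:**
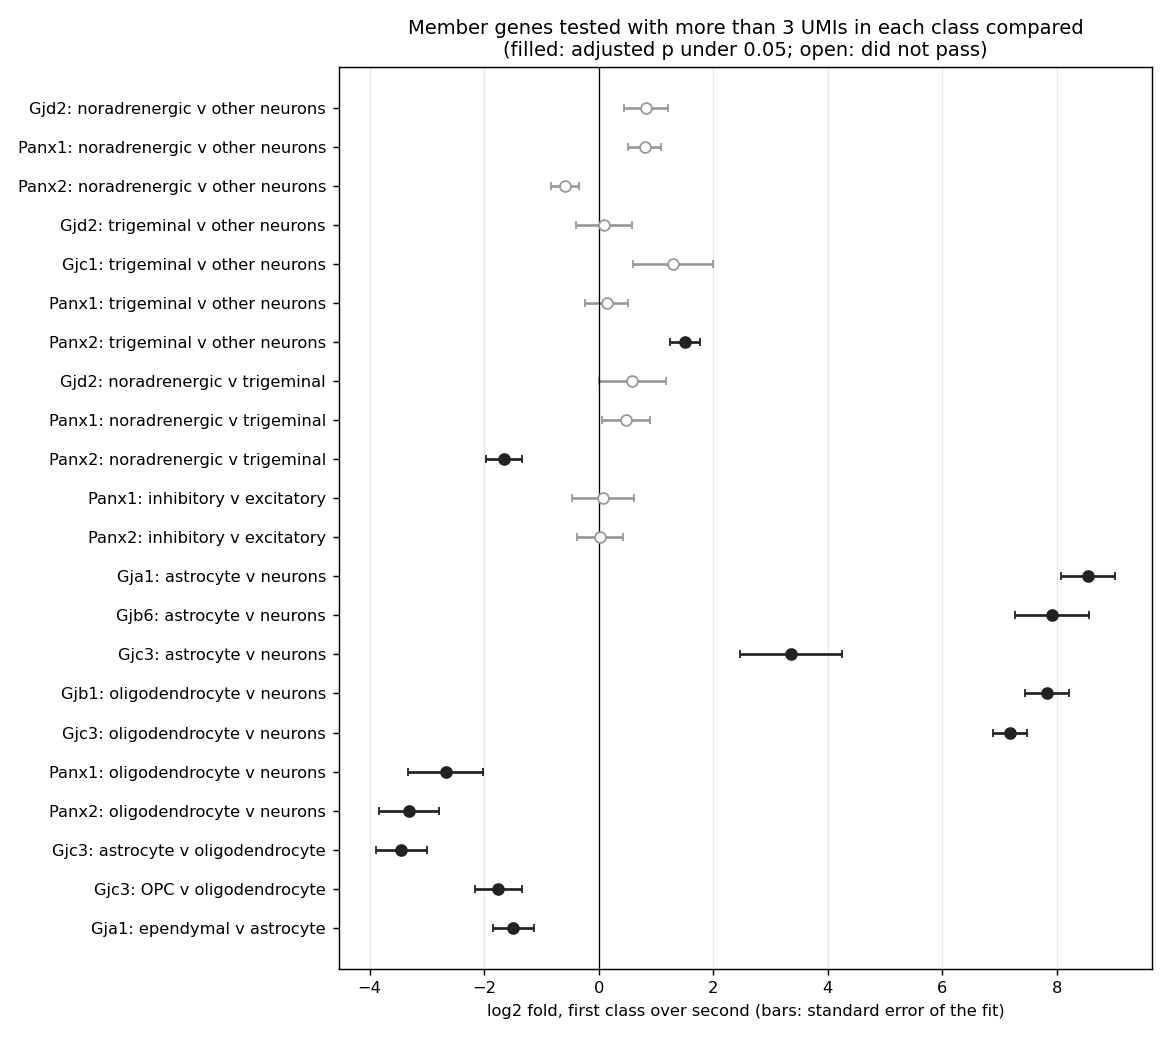
Log2 fold changes with standard errors from edgeR for the connexins and pannexins tested with more than 3 UMIs in each class, by comparison, with filled points for adjusted p below 0.05. Gja1 and Gjb6 stand at 8.55 and 7.91 in astrocyte-like cells against neurons, and Panx2 at 1.51 in trigeminal-like neurons against other neurons.

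Proteins that anchor or move connexins formed a list of 10. Tjp1, the gene of the scaffold protein ZO-1 that binds connexin tails, was higher in oligodendrocyte-like cells than in neurons (1.62 ± 0.22). It was lower in precursor-like than in oligodendrocyte-like cells (−1.13 ± 0.38). Tjp1 was lower in ependymal-like than in astrocyte-like cells (−1.85 ± 0.39), and Mpdz, a multi-PDZ scaffold, was higher (1.58 ± 0.40). Cnst, whose product consortin carries connexins to the surface, was higher in trigeminal-like than in other neurons by 2.75 ± 0.25. Nbea, the gene of neurobeachin, had 16 and 28 UMIs there against 2475 and 2326 in the other neurons (−4.28 ± 0.28). In noradrenergic-like neurons 1 was higher and 2 lower of 9, with Cnst at −1.62 ± 0.25 and Tjp1 at −0.85 ± 0.17, a share near the 31% called over all genes (medians −0.19 and −0.02).

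Purinergic partners of pannexins formed a list of 18 genes. In trigeminal-like neurons 4 of 8 tested were higher, P2rx6 (4.78 ± 0.68), P2ry14 (2.42 ± 0.65) and P2rx5 (2.05 ± 0.68) with the largest folds, and P2rx4, another ATP-gated channel, was lower (−0.95 ± 0.39). So 5 of 8 were called, beside 34.8% of all genes, with a median log2 fold of 1.17 beside −0.03 over all genes. P2rx6 rested on 10 and 20 UMIs against 1 and 5. It passed the low-count filter through trigeminal-like neurons alone and had to differ. A gene that enters this way raises the share called and can move the median, and 10 of the 18 genes were not tested. The same limit applies to the other shares of this list. In noradrenergic-like neurons 2 of 5 tested were higher, P2rx4 (0.93 ± 0.28) and the adenosine receptor gene Adora2a (1.48 ± 0.45). Adora1, the inhibitory adenosine receptor gene, was lower, with 1 UMI against 254 in the other neurons. The 3 calls of 5 stand beside 31% of all genes (medians 0.08 and −0.02). The ATP-degrading enzyme gene Entpd1 and the ATP receptor gene P2rx7 were higher in astrocyte-like cells than in neurons (4.03 ± 0.73 and 2.34 ± 0.91), 2 of 8 tested beside 24.9% of all genes (medians 0.43 and −0.21), though P2rx7 had no UMI in library 1. In oligodendrocyte-like cells against neurons 4 of 8 were higher, Nt5e, the enzyme gene that makes adenosine from AMP (3.25 ± 0.57), P2rx7 (3.19 ± 0.45) and Adora1 (1.23 ± 0.28) among them, and Slc29a1, a nucleoside transporter gene, was lower, with 1 UMI against 104. That is 5 of 8 called, beside 51.2% of all genes (medians 0.86 and −0.06). P2rx6 was also higher in ependymal-like than in astrocyte-like cells (2.98 ± 0.63), with P2rx7 (1.57 ± 0.60) the other call of 4, beside 40.6% of all genes.

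The genes whose levels over 22 class sums (11 classes in 2 libraries) ran closest to each member were taken by Pearson r of log2(CPM + 10) among 9831 genes. The class sums share libraries and depth, so r is a description. For Gja1 they were Prdm16 (0.96), Mlc1 (0.95) and B230323A14Rik (0.95), and for Gjb6 Cd38 (0.99), Slc7a10 (0.98) and Cyp2j9 (0.98). Gjb1 ran with Opalin (0.97, one of the class markers), Cacna2d4 (0.97) and Car14 (0.97), although within the oligodendrocyte-like class Gjb1 was low where Opalin was high. Gjc3 ran with Ninj2 (0.95), Olig1 (0.93) and Nkx2-2os (0.93), and Gjc1 with Podxl (0.97), Gm26532 (0.95) and Igfbp7 (0.95). Panx2 ran with Tmem151b (0.96), Golga7b (0.94) and Rell2 (0.94). The values were lower for Gjd2, with Mdh1 (0.89), 2900097C17Rik (0.88) and Atp1b1 (0.87), and for Panx1, with Mob4, D430019H16Rik and Lrrfip1 (0.81 each).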

How the data were processed

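RNA of single cells or nuclei was measured with 10x Genomics droplet libraries. The deposited matrices hold counts (UMIs per gene and barcode), not normalized. The submitters' processing notes list GRCm38 and mm10 as builds, and Seurat and Cell Ranger 7.0 as tools. The counts were written by Cell Ranger 6.1.2, per the file headers. Counting of introns and strand is not given in the sources used here. Cells had been called before deposit, with at least 4208 UMIs in library 1 and 500 in library 2. The series states 2578 cells, against 304 and 2796 barcodes.

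The genes described and all lists were chosen with earlier results of these data known. Kept barcodes had at least 300 genes and at most 20% mitochondrial UMIs. The highest Scrublet scores, 0.8% per 1000 barcodes, were removed as doublets. Clusters came from 139 marker genes in 25 lists (scanpy 1.11.5, 20 principal components, 15 neighbours, Leiden resolution 1, igraph 0.11.9, seed 1), without integration. Naming a cluster needed 3 or more markers of 1 list at 10 CPM and at a log2 ratio of 2 over the median cluster (prior 20 CPM), with no other list within 1. Neurons had pan-neuronal markers of at least 5000 CPM. Unnamed neurons entered the sums of all and other neurons.

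UMIs were summed per class and library, with at least 5 cells each. The 4 sums of a comparison entered a two-sided edgeR test (version 4.0.16, with limma 3.58.1 under R 4.3.3) with TMM scaling, filterByExpr and library as a block, since each library gave both classes. The residual degree of freedom is 1, so the test pools spread over genes, and spread between mice is not covered. SE is the log2 fold over the square root of F. Single-library folds use a prior count of 2. Where 1 class lacked UMIs, its 2 libraries together were set to 3 counts for a bound, and where it had 1 to 3 UMIs the pooled ratio is given with its counting interval. Named were all 8 genes, up to 3 higher and 3 lower genes of each list and the 3 genes with the highest r, among genes with a mean of at least 10 CPM. Some genes of the lists are not reported here. The fit was tested on simulated counts. DESeq2 1.42.0 and the other alternatives are in the closing section. Positions came from GENCODE M21 on GRCm38 (32158 of 32285 features matched) and promoter sequences from RefSeq on GRCm38.p6. Windows were matched for 6 of the 8 genes, not for Gjc1 and Panx2. Other software was Python 3.11.15 with matplotlib 3.10.9, scikit-learn 1.9.0, scipy 1.17.1, anndata 0.12.19, pandas 2.3.3 and numpy 2.4.6.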

Additional observations from a re-analysis of the deposited data

How the results depend on the processing

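Of 347 values of single genes under alternative settings 293 were the same. Same meant direction and call kept or, for a single library, a fold within 1 SE of the main fold. Counts of calls were the same if equal or within 1.5 times, which can hide the loss of a call. By that rule 73 of 83 counts of genes called were the same, and 71 of 83 counts of the 8 genes called. The call of Panx2 in trigeminal-like against other neurons held under DESeq2, as did the calls of Gjb6 and Gjb1. Each of the latter set many UMIs in 1 class against at most 6 in the other, so they add little to the levels. DESeq2 called fewer genes in all 9 comparisons: 1245 (against 3606) for noradrenergic-like and 1647 (4056) for trigeminal-like against other neurons, 1125 (2997) between these 2 classes, 84 (321) for inhibitory-like against excitatory-like, 1575 (2952) for astrocyte-like and 3298 (6253) for oligodendrocyte-like cells against neurons, 1086 (2273) for astrocyte-like and 755 (1735) for precursor-like against oligodendrocyte-like, and 656 (1875) for ependymal-like against astrocyte-like cells. Calls among the 8 genes lost under it were Panx2 in noradrenergic-like against trigeminal-like neurons (0 called; −1.66, adjusted p = 0.0718), Panx2 in astrocyte-like cells against neurons (3 called; 0.169; Panx1, Gjd2 and Gjc1 had no adjusted p), Gjd2 and Panx1 in oligodendrocyte-like cells against neurons (3 called; 0.0936 and 0.0572), Gja1 in astrocyte-like against oligodendrocyte-like cells (0.0532), Gjc3 in precursor-like cells (1 called; −1.70, 0.0819) and Gja1 in ependymal-like cells (1 called; −1.37, 0.181). Panx1 was called (1 called) in noradrenergic-like against other neurons with 1 fit over all classes (log2 fold 0.96, adjusted p = 0.0425), at least 500 genes per cell (0.80, 0.0490), 2 times the doublet rate (0.86, 0.0416), resolution 2 (0.80, 0.0373), marker gates (0.85, 0.0268) and without trigeminal-like and granule-like neurons (0.84, 0.0310). The fit over all classes called 2 genes, Gjc1 added, between noradrenergic-like and trigeminal-like neurons. In oligodendrocyte-like cells against neurons it called 4, without Gjd2. Without the replicate block, inhibitory-like against excitatory-like neurons had 174 genes called, and no other count of calls moved by over 1.5 times. With a single library, signs turned for 6 values that were not called: Gjd2 (−1.66, library 1) and Panx1 (−0.43, library 2) in trigeminal-like against other neurons, Gjd2 between noradrenergic-like and trigeminal-like neurons (−0.61, library 2), Panx1 (−0.46, library 1) and Panx2 (−0.98, library 2) in inhibitory-like against excitatory-like neurons and Gjc1 in astrocyte-like cells against neurons (−2.30, library 1). Under other settings signs turned for values near 0: Gjd2 in trigeminal-like against other neurons (−0.11 with DESeq2, −0.0148 without a filter), and for inhibitory-like against excitatory-like neurons Panx1 (−0.0216 with DESeq2) and Panx2 (−0.0694 with DESeq2, −0.0076 without a filter, −0.0653 with at least 500 genes, −0.0283 with 2 times the doublet rate). At 1000 UMIs per cell, noradrenergic-like cells with a Gjd2 UMI were 0 of 12 and 1 of 72. The cause of these changes was not tested.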

Other observations

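Another family of large-pore channels, the volume-regulated anion channels built of Lrrc8 subunits, was listed with the Calhm channels (11 genes in all, up to 5 tested in a comparison). Its subunits were unequal between glia. Lrrc8a, the obligatory subunit, was higher in astrocyte-like than in oligodendrocyte-like cells (1.82 ± 0.44 on the log2 scale, edgeR adjusted p = 0.0001668), at 183 and 90.6 CPM against 27.0 and 32.4 CPM. Lrrc8b, Lrrc8c and Lrrc8d were lower (−2.43 ± 0.50, −2.82 ± 0.58 and −2.26 ± 0.43), so all 4 genes tested were called, in 2 directions, beside 40.6% of all genes (medians −2.34 and −0.09). Against neurons, oligodendrocyte-like cells were higher in the same 3 subunit genes, Lrrc8b (2.03 ± 0.23), Lrrc8c (1.07 ± 0.23) and Lrrc8d (2.20 ± 0.22). That is 3 of 4 tested, beside 51.2% of all genes called. Precursor-like cells were lower than oligodendrocyte-like cells in these 3 genes, the 3 tested, with Lrrc8b at 3 UMIs, beside 40.9% of all genes called.

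Ependymal-like cells were lower than astrocyte-like cells in Lrrc8a (−2.80 ± 0.57) and higher in Lrrc8c (2.22 ± 0.65). That is 1 lower and 1 higher of 3 tested, beside 40.6% of all genes called. Noradrenergic-like neurons had Lrrc8c at 175 and 103 CPM against 45.7 and 52.2 CPM in the other neurons (1.46 ± 0.22, adjusted p = 0.0003992), 1 of 4 tested beside 31% of all genes called. Trigeminal-like neurons were higher in Lrrc8a (0.90 ± 0.30) and in Calhm5 (3.00 ± 0.97, from 4 and 5 UMIs), 2 of 5 tested, a share near the 34.8% of all genes called.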
